A study of Mus musculus with 16 samples.

Results

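Narrow H3K27me3 regions that recurred across libraries were examined in CCN6KOT cells, a mouse breast cancer cell line labelled spindle metaplastic that was derived from tumours lacking CCN6. The regions were selected on the measured peaks themselves. Peaks of the 8 H3K27me3 lists were merged where they shared at least 1 base, and a merged region was kept if it was autosomal, shorter than 5000 bp and held a peak of at least 5 of the 8 libraries. Regions of chr9:7150000-8300000 were left out. The rule kept 811 of 61441 merged regions, or of the 56174 autosomal regions outside that block.

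The series holds 16 samples. A control group of 4 H3K27me3 libraries came from cells given a control lentivirus, PPGS in the titles, and a group of 4 came from cells given a lentivirus with dnTCF4, a dominant negative construct that blocks transcription by beta-catenin. Both groups carry the CCN6 knockout, were grown in DMEM/F12 with serum and were selected with puromycin, and both rest on a single named line. The other 8 samples are IgG libraries, which were not analysed here. The libraries are called control 1 to 4 and dnTCF4 1 to 4, after the numbers in their titles. The labels do not say whether these numbers stand for separate cultures, so p-values measure only the spread between the libraries, which may be technical.

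H3K27me3 is trimethylation of lysine 27 of histone H3. It is written by EZH2, the catalytic subunit of Polycomb repressive complex 2, and it marks silent genes, above all developmental regulators and genes of other lineages. It often spreads as broad domains, and focal sites also occur at promoters rich in CpG dinucleotides, where the complex is recruited. The beta-catenin/TCF pathway activates Wnt target genes, and the series asks how EZH2 shapes the epigenome of these tumour cells with and without that pathway blocked.

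Sequences of promoters under narrow recurrent regions are shown first, because they let the CpG content of promoters at the edge of or inside the regions be read directly. Each is the 250 bases before a RefSeq transcription start in GRCm38.p6, 5′ to 3′ on the strand of the gene, with every CG dinucleotide in capitals. They belong to regions chosen by a fixed rule on recurrence, rank and listed genes. Shown are the epithelial adhesion gene Epcam, the prolactin receptor gene Prlr, both starts of Emid1, the kinase gene Ttbk1 and the uncharacterised locus Gm36560. The starts of Emid1 are numbered by coordinate, so on the minus strand the second lies upstream of the first.
Epcam, chr17:87635729-87635978, plus strand: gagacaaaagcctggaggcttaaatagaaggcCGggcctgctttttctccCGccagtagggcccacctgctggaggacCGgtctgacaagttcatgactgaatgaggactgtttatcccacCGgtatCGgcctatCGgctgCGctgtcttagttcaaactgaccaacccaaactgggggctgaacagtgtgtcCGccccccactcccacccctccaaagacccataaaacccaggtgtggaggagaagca
Prlr, chr15:10176988-10177237, plus strand: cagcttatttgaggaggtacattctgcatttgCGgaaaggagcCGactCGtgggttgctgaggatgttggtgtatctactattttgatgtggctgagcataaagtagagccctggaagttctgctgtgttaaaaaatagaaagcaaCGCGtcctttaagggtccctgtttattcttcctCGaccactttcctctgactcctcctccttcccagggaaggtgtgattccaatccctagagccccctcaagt
Emid1, first start, chr11:5150075-5150324, minus strand: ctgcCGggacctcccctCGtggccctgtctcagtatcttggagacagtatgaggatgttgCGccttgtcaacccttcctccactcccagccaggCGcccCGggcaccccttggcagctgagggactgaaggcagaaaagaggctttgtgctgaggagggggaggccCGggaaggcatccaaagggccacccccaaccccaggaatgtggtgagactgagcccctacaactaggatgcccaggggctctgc
Emid1, second start, chr11:5152231-5152480, minus strand: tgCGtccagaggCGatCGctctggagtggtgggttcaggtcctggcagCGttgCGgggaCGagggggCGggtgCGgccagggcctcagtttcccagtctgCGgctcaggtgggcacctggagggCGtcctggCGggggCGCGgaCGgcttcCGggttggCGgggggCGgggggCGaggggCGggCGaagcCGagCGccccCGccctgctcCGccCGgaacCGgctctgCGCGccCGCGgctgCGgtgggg
Ttbk1, chr17:46487676-46487925, minus strand: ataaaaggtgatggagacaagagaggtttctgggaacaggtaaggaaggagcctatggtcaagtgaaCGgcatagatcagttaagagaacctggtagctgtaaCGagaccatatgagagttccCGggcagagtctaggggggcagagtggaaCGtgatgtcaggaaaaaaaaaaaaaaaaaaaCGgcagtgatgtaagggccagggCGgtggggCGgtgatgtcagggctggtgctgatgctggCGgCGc
Gm36560, chr15:102743915-102744164, plus strand: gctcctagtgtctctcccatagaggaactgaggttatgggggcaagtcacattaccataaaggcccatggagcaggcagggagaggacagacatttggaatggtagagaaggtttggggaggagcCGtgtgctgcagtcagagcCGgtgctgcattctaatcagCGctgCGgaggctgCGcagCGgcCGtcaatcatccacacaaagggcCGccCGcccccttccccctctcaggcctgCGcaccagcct
The second start of Emid1 held 31 CG dinucleotides in these 250 bases, against 6 at its first start, 8 at Epcam, 6 at Prlr, 9 at Ttbk1 and 10 at Gm36560. All 250 bases lay inside the region at each of these except Ttbk1, where 71 did, and not every library had a peak on them: a single library did at Ttbk1 and at the second start of Emid1. Across the full promoter window, which adds 50 bases after the start, the second start of Emid1 had 37 and Epcam had 11.

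The number of peaks per list ranged from 191 to 54070, and dnTCF4 2 had the shortest list, followed by control 1 and control 2. A list of peaks holds no read counts, so sequencing depth is unknown, and a missing peak cannot be told apart from a library that detected less. Among the 4 control libraries, 162, 258, 810 and 805 of the 811 regions held a peak, in the order of their numbers. Among the 4 dnTCF4 libraries, 810, 81, 765 and 678 did. Control 3, control 4 and dnTCF4 1, the 3 longest lists, were all present at 803 of the 811 regions, so membership turned mainly on which shorter lists joined them. The regions made up a small part of the long lists, at 1.78% of the eligible peaks of control 3, and a large part of the short ones, at 63.6% of those of dnTCF4 2. Eligible peaks are those on autosomes outside the excluded block.

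**Figure D1:**
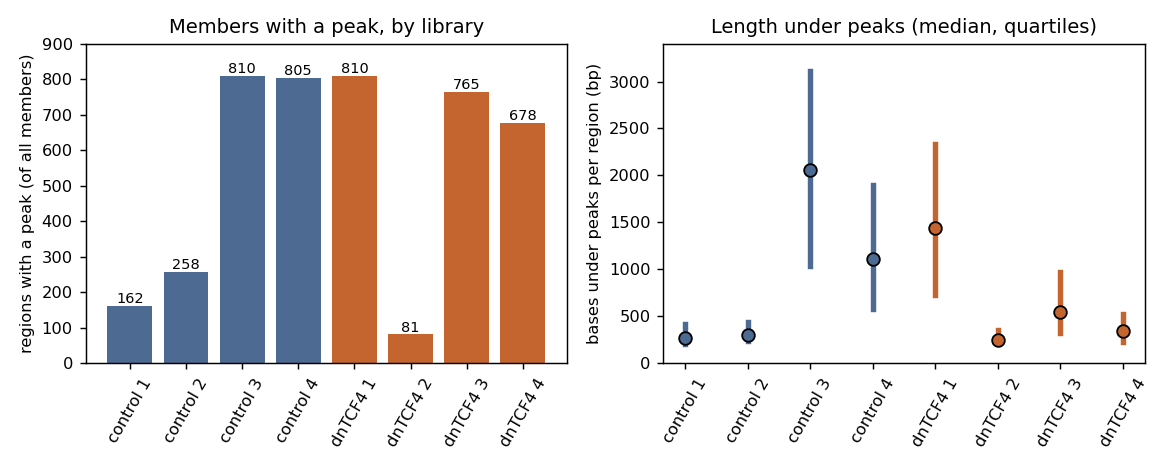
The left panel counts, for each library, the narrow recurrent regions that hold a peak, and the right panel shows the bases under peaks per region (median as a point, quartiles as a bar) over the regions with a peak in that library, with control libraries in blue and dnTCF4 libraries in orange. Control 3, control 4 and dnTCF4 1 hold a peak at 805 to 810 regions, while dnTCF4 2 holds one at 81.

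Where a library had a peak, the length it covered also differed. The median length under peaks was 2056 bp in control 3, 1106 bp in control 4 and 1445 bp in dnTCF4 1, against 274 bp in control 1, 300 bp in control 2 and 246 bp in dnTCF4 2. The remaining lists, dnTCF4 3 and dnTCF4 4, covered 549 and 340 bp. Peaks of the other libraries were largely nested in those of control 3: between 85.9% (dnTCF4 1) and 98.4% (dnTCF4 2) of their bases inside the regions lay under a control 3 peak. The outer limits of the regions were thus set by the long lists, and the short lists added small peaks within them.

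Most regions had a common core. In 684 of 811 regions (84.3%), all libraries with a peak shared at least 1 base, and this shared stretch had a median of 203 bp, with quartiles of 155 and 289 bp. In the other 127 regions no base lay under a peak of every library that counted, so recurrence there came from neighbouring peaks joined by longer ones. Separate peaks of a single library were merged in 329 regions. Widths ran from 277 to 4996 bp with a median of 2358 bp, and the regions covered 1989 kb in all. Among the regions that the rule kept, the median width was 2339 bp in 5 libraries, 2469 bp in 6, 2352 bp in 7 and 2599 bp in 8. The rule leaves out regions of 5000 bp or longer, which limits how far width can rise here. Narrow regions in fewer libraries were shorter, with medians of 398 bp in 1 library, 1107 bp in 2 or 3 and 1994 bp in 4.

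The 811 regions comprised 588 with a peak in 5 libraries, 150 in 6, 55 in 7 and 18 in all 8. The most common pattern, at 424 regions, was control 3 and control 4 with dnTCF4 1, dnTCF4 3 and dnTCF4 4. More dnTCF4 than control libraries held a peak in 488 regions (60.2%), more control libraries in 189 (23.3%), and equal numbers in 134. This split depended on which libraries were counted. Without dnTCF4 1, dnTCF4 3 or dnTCF4 4, and with the rule otherwise the same, it turned round, to 80.3%, 81.6% and 84.3% of regions with more control libraries. Each of these left fewer regions, with 239, 266 and 344. Leaving out 1 library makes the groups unequal in size, which by itself favours the larger group in this count. Without dnTCF4 2, 56.3% of 794 regions still had more dnTCF4 libraries. Without 1 control library, 71.5% (control 1) to 81.7% (control 2) did. When the lists longer than 4885 peaks were cut to their 4885 strongest, 50.2% of 448 regions had more dnTCF4 libraries.

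**Figure D2:**
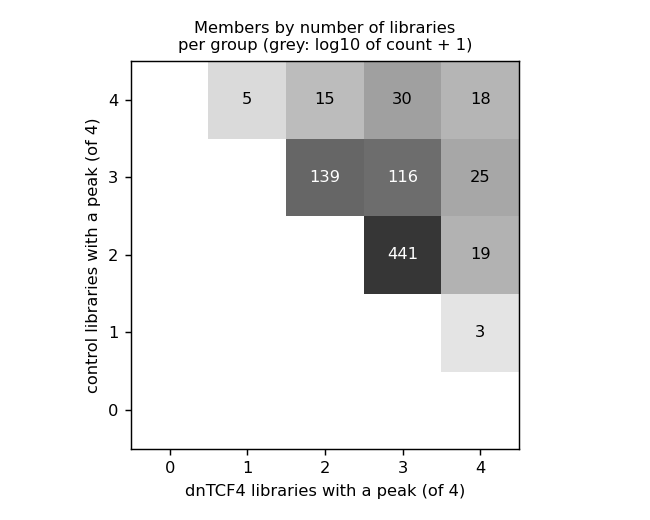
Each cell gives the number of narrow recurrent regions with peaks in that many of 4 control libraries (vertical axis) and 4 dnTCF4 libraries (horizontal axis), shaded by the log10 of the count plus 1. The largest cell, with 441 regions, is 2 control and 3 dnTCF4 libraries, and no region lies at 4 and 0 or at 0 and 4, which the rule of 5 libraries does not allow.

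Presence of a peak was compared between the groups by a two-sided Fisher's exact test in all 56174 regions, with Benjamini-Hochberg adjustment. None of the 811 regions passed an adjusted p of 0.05, and the percent called over all regions was 0. At an unadjusted p below 0.05 the test called 1 of 56174 regions and 0 of the 811. The rule itself limits what a member can show: the most unequal split of 5 libraries, 4 against 1, gives an exact p of 0.143, and the smallest p of any region with 4 libraries per group is 0.0286. A sign-flip test over libraries of the same number called 0 regions, also at an unadjusted p below 0.05, but 0.125 is the smallest p it can give with 4 pairs. Since the regions were also chosen on the presence of peaks, these tests could not have called a difference between control and dnTCF4 cells at any of them, and the counts of 0 say nothing of whether the groups differ there.

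The 18 regions with a peak in every library lay on chromosomes 2 (7 regions), 15 (4), 17 (3), 5 (2), 8 and 11. Fold enrichment, the authors' ratio of signal in a peak over the background estimated by the peak caller, was taken from the strongest peak of each library. It describes peaks within a list and was not compared between lists. To compare ranks, each peak was also given the percentile of its fold enrichment in its own list, and a region's percentile is the median over the libraries that hold a peak. The highest percentile of the 18, at 99.5, belonged to chr2:168240542-168245534, a region of 4993 bp that lay 8.24 kb from Mocs3, a gene of molybdenum cofactor synthesis. Its fold enrichment was 4.33, 6.86, 4.18 and 4.06 in control 1 to 4 and 5.29, 7.83, 5.23 and 8.24 in dnTCF4 1 to 4. Its peaks covered 204, 458, 4847 and 3271 bp in the control libraries and 3653, 615, 2065 and 814 bp in the dnTCF4 libraries, so the groups overlapped in the length covered. All 8 shared 204 bp.

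The shortest of the 18, chr11:101908113-101908563, was 451 bp long and lay 13.8 kb from Meox1, a mesoderm homeobox gene. Here the libraries covered nearly the same stretch, with 344, 330, 425 and 374 bp in control 1 to 4 and 451, 262, 415 and 367 bp in dnTCF4 1 to 4. The fold enrichment was 4.86, 6.31, 4.08 and 3.23 in the control libraries and 7.02, 5.70, 7.69 and 4.66 in the dnTCF4 libraries. Even the 3 longest lists did not extend far beyond the 248 bp that all 8 libraries shared, unlike at the region near Mocs3. A comparably compact region, chr5:122061288-122061883, was 596 bp long and lay 10.9 kb from Cux2, a homeobox gene of neurons. Its peaks covered 183 to 596 bp in the control libraries and 230 to 396 bp in the dnTCF4 libraries.

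Of the 18, 6 lay over protein-coding genes. The gene Nipal2, which encodes a membrane transporter-like protein, was overlapped by chr15:34676344-34677952. Its fold enrichment was 4.80, 4.92, 4.50 and 4.60 in control 1 to 4 and 5.26, 4.72, 3.99 and 4.23 in dnTCF4 1 to 4. Cdh22 encodes a cadherin, a cell adhesion protein, and was overlapped by chr2:165202549-165204166, with 325 bp shared by all 8 libraries. Another of the 18, chr2:165235776-165238557, lay 0.852 kb outside the same gene, at the 95.1 percentile. Its fold enrichment was 5.81, 5.52, 5.34 and 3.38 in the control libraries and 4.03, 6.13, 6.11 and 5.65 in the dnTCF4 libraries.

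The remaining genes under regions of all 8 libraries were Plcb2, a phospholipase C of blood cells (chr2:118719663-118722308), Myo1h, an unconventional myosin (chr5:114297708-114300312), Galnt6, an enzyme that starts O-linked glycosylation (chr15:100723999-100726590), and Scn8a, a neuronal voltage-gated sodium channel (chr15:100980125-100983448). At Scn8a the fold enrichment was 3.71, 6.85, 3.63 and 4.14 in control 1 to 4 and 5.87, 4.70, 4.52 and 3.98 in dnTCF4 1 to 4, and all libraries shared 213 bp. At Galnt6 no base was shared by all 8 libraries, and at most 7 lay on the same base. Among the intergenic ones, chr17:36202970-36205089 lay 12.8 kb from H2-T3, a nonclassical histocompatibility gene. Bmp7, which encodes a secreted growth factor, was the nearest gene to chr2:172729233-172730885, at 137 kb.

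The most unequal members were 5 regions with peaks in all 4 control libraries and 1 dnTCF4 library, and 3 regions with the reverse. In all 5 of the former the dnTCF4 library was dnTCF4 1, the longest dnTCF4 list. They were chr1:38715390-38716182, chr2:160522214-160524177, chr5:72364048-72365537 over Corin, a protease of the heart, chr13:48751355-48752033 and chr15:35222562-35226977. At the Corin region the peaks covered 230, 402, 1490 and 1101 bp in control 1 to 4 and 223 bp in dnTCF4 1. The reverse pattern was found at chr17:87641393-87642059 in Epcam, at chr5:110543061-110543921, 0.111 kb from Galnt9, and at chr15:10941156-10941645, 10.5 kb from C1qtnf3, a gene of an adipose-derived secreted protein. At the region near Galnt9, another enzyme of O-linked glycosylation, the peaks covered 452 bp in control 3 and 847, 230, 216 and 457 bp in dnTCF4 1 to 4. Neither pattern is below an exact p of 0.143 by Fisher's exact test.

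Epcam, which encodes an adhesion molecule of epithelial cells, was overlapped by 4 narrow recurrent regions, as many as Cdh22 and Myo1h and more than any other gene. The first, chr17:87634139-87636313, ran from -1840 to 334 bases relative to the start and so covered the promoter sequence shown above. Its peaks covered 219, 0, 2164 and 823 bp in control 1 to 4 and 2124, 0, 933 and 0 bp in dnTCF4 1 to 4. Only the peaks of control 3 and dnTCF4 1 reached the promoter window itself. The other libraries with a peak here marked the DNA upstream of it.

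Within the gene body, chr17:87637313-87640052 was held by control 3 and control 4 and by dnTCF4 1, dnTCF4 3 and dnTCF4 4. The next, chr17:87641393-87642059, was held by control 3 and all 4 dnTCF4 libraries, with fold enrichment of 3.78 in control 3 and 3.07, 4.99, 4.21 and 4.72 in dnTCF4 1 to 4. The last, chr17:87643242-87647006, was missed only by control 1, and its peaks covered 0, 233, 2974 and 2180 bp in the control libraries and 1744, 203, 788 and 1543 bp in the dnTCF4 libraries. Each library of both groups had a peak in at least 1 of the 4 regions, and the libraries differed in which of them they held. The peak of control 1 lay upstream of the gene. The nearest region of 5000 bp or longer, whatever its number of libraries, was 755 kb from the promoter region.

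**Figure D3:**
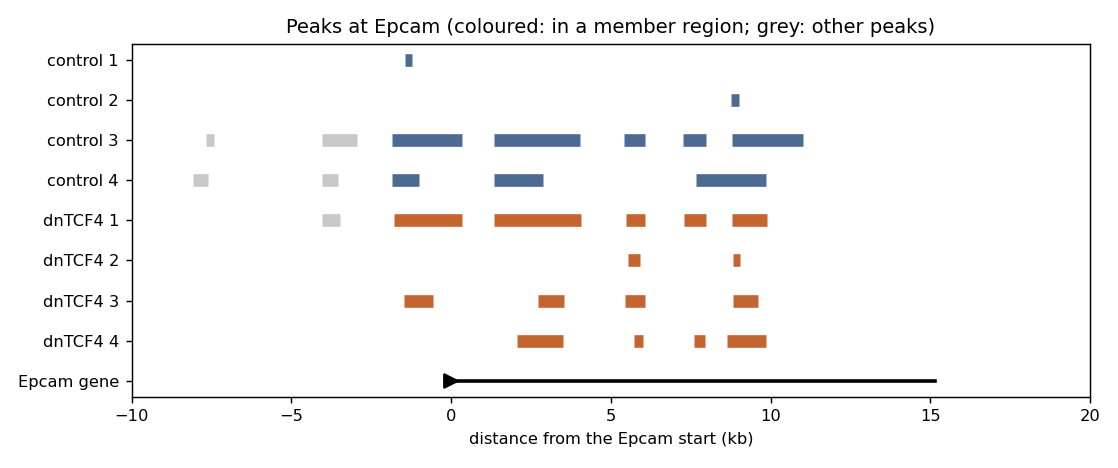
Peaks of each H3K27me3 library around Epcam, as bars against the distance from the annotated start in kb, in blue for control and orange for dnTCF4 where they belong to a narrow recurrent region and in grey otherwise. The black line is the gene, and the 4 regions appear as columns of bars, of which the one across the start has bars that reach it only in control 3 and dnTCF4 1.

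Of 53 genes of epithelial identity and junctions, a list of known epithelial genes, Epcam and Grhl2 were overlapped by a region (3.77%). Spint1, a protease inhibitor of epithelia, had one within 10 kb (5.66% counting those overlapped). Grhl2, a transcription factor of epithelial cells, held chr15:37234714-37238710 with peaks in control 2, 3 and 4 and in dnTCF4 1, 3 and 4. The fold enrichment there was 4.60, 4.00 and 3.78 in these control libraries and 4.90, 4.32 and 4.39 in these dnTCF4 libraries. None of 34 mesenchymal genes was overlapped, or had a region within 10 kb. These counts are set against 269 of all 20665 autosomal protein-coding genes (1.30%) with a region over them and 544 (2.63%) with a region within 10 kb, counting those overlapped. A list of 34 genes is short for shares this low, so its count of 0 does not set it apart from all genes. A merged region of any kind was found for 25 of 53 epithelial and 4 of 34 mesenchymal genes, against 3599 of all 20665. The lists also differ in gene length. Its median was 18.9 kb in the epithelial list, 30.8 kb in the mesenchymal list and 17.5 kb over all genes.

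Mammary genes included Prlr, the receptor through which prolactin drives milk gene expression. It was the single gene overlapped of 24 luminal and milk genes (4.17%, against 1.30% of all genes). Lalba, which encodes a milk protein, had a region within 10 kb. The Prlr region, chr15:10175302-10177580, spanned -1936 to 342 bases relative to the start shown above. Its peaks covered 0, 858, 2279 and 1948 bp in control 1 to 4 and 2081, 0, 1421 and 0 bp in dnTCF4 1 to 4, and the 5 libraries shared 677 bp. Peaks of control 2, control 3, control 4 and dnTCF4 1 reached the promoter window.

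Developmental regulators were overlapped in small numbers, but at shares above the 1.30% of all genes overlapped and the 2.63% with a region over them or within 10 kb. Of 39 Hox genes, homeobox regulators of body patterning, Hoxc9 and Hoxc13 were overlapped (5.13%), and 6 had a region over them or within 10 kb (15.4%). Hoxc13, which also controls hair and nail keratins, held chr15:102922587-102927183 with peaks covering 1422, 213, 4393 and 4016 bp in control 1 to 4 and 4069, 0, 3618 and 1159 bp in dnTCF4 1 to 4. It also held chr15:102928195-102931506, with peaks in 3 control and 3 dnTCF4 libraries. Of 139 other developmental transcription factors, 6 were overlapped (4.32%), namely Alx4, Gbx1, Lhx3, Pax7, Six3 and T, and 20 had a region over them or within 10 kb (14.4%). Hox genes are short, with a median of 3.74 kb, and so are the other developmental factors, at 6.44 kb. A merged region of any kind was found for 21 of 39 Hox genes and 78 of 139 other factors. The same held for 3599 of all 20665 genes, so higher shares than all genes were not particular to narrow recurrent regions.

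Pax7, a regulator of muscle stem cells and neural crest, held a compact region of 389 bp, chr4:139792785-139793173. All libraries except dnTCF4 2 had a peak there, and the fold enrichment was 5.23, 4.06, 3.24 and 2.87 in control 1 to 4 and 4.48, 4.53 and 3.64 in dnTCF4 1, 3 and 4. T, the mesoderm factor Brachyury and a target of Wnt signalling, held chr17:8440196-8444439 with peaks in control 3 and 4 and in dnTCF4 1, 3 and 4. The peaks there covered 3981 and 952 bp in these control libraries and 882, 249 and 225 bp in these dnTCF4 libraries. Six3, a forebrain and eye factor, had the same 5 libraries at chr17:85624004-85625880.

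Few genes of the Wnt pathway were overlapped, though at a higher share than all genes. Of 40 Wnt ligands and antagonists, Wif1, a secreted Wnt inhibitor, and Wnt9b, a ligand, were overlapped (5.0%, against 1.30% of all genes), and with Sost, Wnt1 and Wnt8b 12.5% had a region over them or within 10 kb, against 2.63%. Wif1 held chr10:121057854-121058278, 425 bp long, where fold enrichment was 5.05 and 2.98 in control 3 and 4 and 2.81, 3.87 and 5.51 in dnTCF4 1, 3 and 4. Wnt9b held chr11:103744651-103746580 with peaks in control 1, 3 and 4 and in dnTCF4 1 and 4. A merged region of any kind was found for 17 of these 40 genes, against 3599 of all 20665. The higher share was thus not particular to narrow recurrent regions. Of 30 genes of the beta-catenin/TCF complex and its targets, T alone was overlapped (3.33%), and the target Sp5 had a region within 10 kb. None of 30 Polycomb genes was overlapped, and Cbx8, which encodes a subunit of Polycomb repressive complex 1, had a region within 10 kb. None of 38 housekeeping and ribosomal protein genes had a region over it or within 10 kb. Lists of 30 and 38 genes are short for the shares of all genes, so these counts of 0 do not set them apart.

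Ion channel and neurotransmitter receptor genes had the highest share among these lists, with 9 of 92 (9.78%) overlapped. Their median length of 61.0 kb is also the longest of the lists. Calcium channel genes were Cacna1a, Cacng2 and Cacng4, glutamate receptor genes Grin1, Grin2c and Grm4, and the others included the nicotinic receptor gene Chrna4 and Scn8a. Scn8a and Grm4, which encodes a metabotropic glutamate receptor, each held 3 regions. Cacng2, whose protein also guides AMPA receptors, held chr15:78083929-78085684 with peaks in every library but control 2, at a percentile of only 10.9, so recurrence and strength did not go together there. The region over Chrna4, chr2:181039872-181043136, had peaks in 5 libraries and a percentile of 90.1.

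Promoters were defined as 250 bases before to 50 bases after a start in the RefSeq table, which held 79.6% of autosomal protein-coding genes. Of the 802 regions on chromosomes with promoters in that table, 37 overlapped a promoter (4.61%, 95% Wilson interval 3.37 to 6.29%, counting error only). The share was 3.59% of narrow regions in 4 libraries, 1.75% of those in 2 or 3, and 0.679% of those in 1. It was 9.46% of the longer regions in at least 5 libraries and 1.27% of all regions. Median widths followed the same order, from 398 bp in regions of 1 library to 1994 bp in 4 libraries and 7081 bp in the longer recurrent regions, and the part of width in these shares was not tested. Among narrow recurrent regions shorter than 2000 bp the share was 2.53%, and without control 3, the longest list, it was 2.75% of 294 regions.

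The 37 regions overlapped 44 promoter windows of 38 genes, and most libraries had their peaks beside the window and not on it. Some of these windows are near-copies, and with starts of a gene up to 100 bases apart counted once there were 40 promoters. Only 2 of them, of Gm454 and Gm52319, held a peak of 5 or more libraries, 28 held peaks of 1 or 2, and the median was 2. Of the 44 windows, 34 held a peak of control 3, 19 of control 4 and 33 of dnTCF4 1. Control 1 and control 2 had peaks on 1 and 5 of them, and dnTCF4 1 to 4 on 33, 0, 11 and 2. Among the regions whose promoters are printed above, the first start of Emid1 lay under peaks of control 4 and dnTCF4 1, and the second, CpG-rich start lay under a peak of control 3 alone. The Emid1 region, chr11:5149829-5154545, was at the 99.5 percentile, with peaks covering 464, 218, 4015 and 3227 bp in control 1 to 4 and 3237, 0, 1671 and 583 bp in dnTCF4 1 to 4.

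Promoters under the regions were seldom rich in CpG. On the 17 autosomes whose promoters are mostly in the table, and with starts of a gene up to 100 bases apart counted once, 33 promoters under the regions had a median of 7 CG dinucleotides in 300 bases, the same as all 29046 promoters, but 4 of 33 had 20 or more (12.1%), against 26.9% of all. Of these 4, the promoters of Elapor2, Elmo1 and Fndc1 only met the edge of a region, with 65, 42 and 18 of the 250 upstream bases inside it. The other was the second start of Emid1, under a peak of control 3 alone. Promoters under narrow regions in fewer libraries had a median of 3, and 1.58% had 20 or more. Those under the longer recurrent regions had a median of 6, with 3.45% at 20 or more. The letters CTTTGAT, to which TCF/LEF factors bind, were in 0 of the 33 promoters and in 3.75% of all, on either strand. CACCTG, an E-box bound by repressors such as Snail and Zeb, was in 9 of 33 (27.3%) and in 20.5% of all, and the Epcam promoter shown above and the second start of Emid1 held it. The motifs share no full match, and a match or its absence describes only these letters in these windows.

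Most of the regions were not at promoters. The midpoint lay inside a protein-coding gene in 290 regions (35.8%), close to the 35.5% of all regions and below the 40.0% of annotated autosomal length that genes occupy. Counting any overlap, 324 regions (40.0%) lay over a gene. The 487 others were a median of 12.3 kb from the nearest gene, and the farthest, chr5:111938719-111939159, was 307 kb from Cryba4, a lens crystallin gene. None of 1005 miRNA hairpins in the RefSeq table lay under a region, and 11 lay under any of the merged regions.

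The regions lay nearer to gene ends than less recurrent ones did. From the midpoint to the nearest annotated end of a protein-coding gene the median was 10.8 kb, with quartiles of 3.16 and 29.5 kb. The same median was 13.4 kb for narrow regions in 4 libraries, 18.2 kb for those in 2 or 3, 27.1 kb for those in 1, and 11.9 kb for the longer recurrent regions. Within 2 kb of a gene end lay 116 regions (14.3%), against 7.40% of all regions and 8.04% of the longer recurrent ones. These windows hold 5.74% of the annotated autosomal length. More than 50 kb from any gene end lay 15.3% of the regions and 29.5% of all regions.

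**Figure D4:**
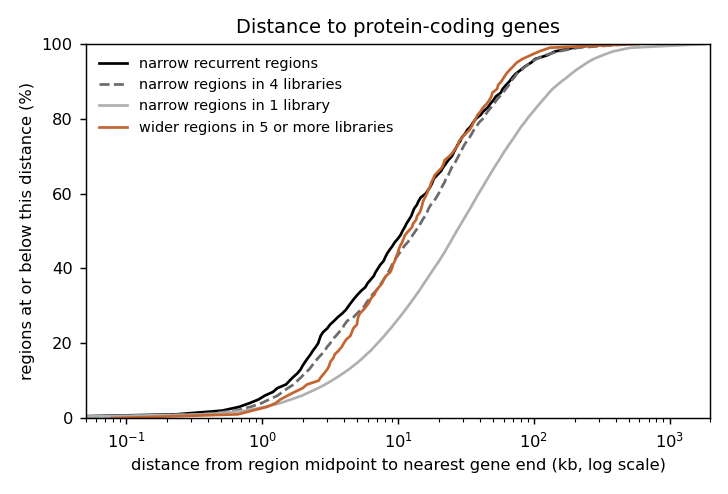
Cumulative share of regions (vertical axis, percent) against the distance from the region's midpoint to the nearest end of a protein-coding gene (horizontal axis, kb, log scale), for narrow recurrent regions, narrow regions in 4 libraries or in 1 library, and longer regions in at least 5 libraries. The curve of narrow recurrent regions lies above that of regions in 1 library, with medians of 10.8 and 27.1 kb.

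Many of the regions stood beside longer ones. A region of at least 5000 bp, whatever its number of libraries, lay within 10 kb of 175 of them (21.6%). The same held for 18.5% of narrow regions in 4 libraries and 6.79% of all narrow regions in fewer than 5. The median distance was 93.5 kb, against 112 and 676 kb. The regions also lay near each other. Joined across gaps of up to 50 kb they formed 585 runs, and 366 regions stood in a run with at least 1 other. A run had 4 or more regions in 22 cases.

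The largest run held 9 regions in chr15:100633781-100837238, over Smagp, Galnt6 and the bicarbonate transporter gene Slc4a8. The next held 7 regions in chr17:35290184-35356929, between H2-D1 and H2-Q2 in the histocompatibility complex. Runs of 6 lay around Prokr2, a receptor gene of olfactory and reproductive development, in chr2:132364193-132505180, and beside Lhx5, a neural homeobox gene, in chr5:120348776-120450391. The Hoxc cluster held a pair of runs with 5 regions each, in chr15:102922587-102990136 and chr15:103061313-103089983. In the albumin locus, Alb held chr5:90463139-90466521 and the fetal gene Afp held chr5:90495757-90500475. At Afp, peaks covered 155, 684, 4719 and 4109 bp in control 1 to 4 and 3957, 0, 2113 and 1838 bp in dnTCF4 1 to 4.

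The chromosomes shared the regions unevenly. Chromosome 2 held 212 of them (26.1%), where 13.5% of all regions and 7.40% of annotated autosomal length lay. Chromosome 15 held 142 (17.5%, against 8.42% of regions and 4.22% of length), chromosome 5 held 100 and chromosome 17 held 75. Together these chromosomes had 65.2% of the regions, 36.1% of all regions, and 76.9% of the longer recurrent regions. Chromosome 12 had 2, chromosome 3 had 3 and chromosome 9 had 4. Every library placed a large share of its peaks on chromosome 2, from 13.1% in control 3 to 29.5% in dnTCF4 3, and on chromosome 15, from 8.25% in control 3 to 34.0% in control 1. The part of these shares in the uneven distribution was not tested.

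**Figure D5:**
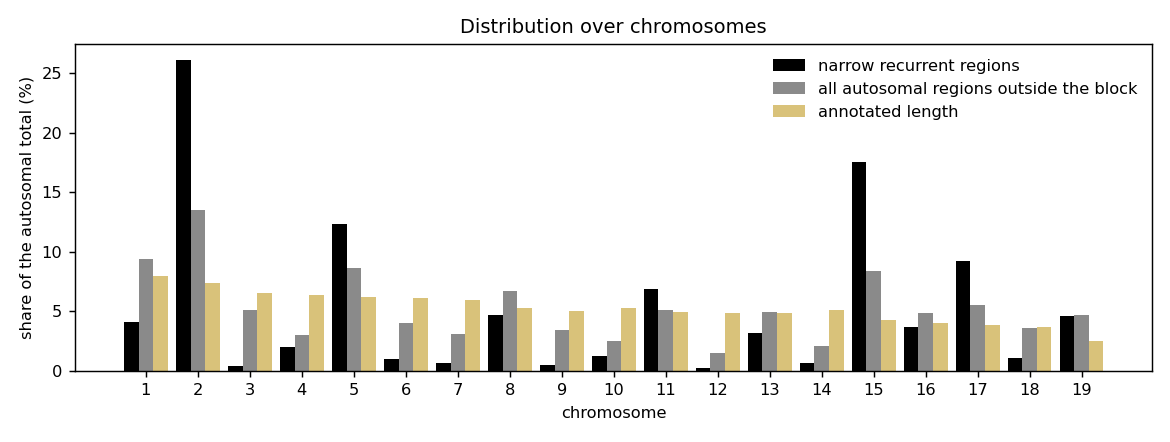
Share of the autosomal total on each chromosome (vertical axis, percent) for narrow recurrent regions (black), all autosomal regions outside the excluded block (grey) and annotated length (tan). Chromosomes 2, 5, 15 and 17 hold 65.2% of the narrow recurrent regions.

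In fold enrichment, the regions ranked above other narrow regions in 7 of the 8 lists, which is a description of peaks that the rule selected. The median percentile was 61.7, 61.2, 89.1 and 69.4 in control 1 to 4, where other narrow regions had 45.1, 54.5, 49.6 and 49.7. In dnTCF4 1, 3 and 4 it was 83.4, 60.1 and 56.6, against 48.5, 51.2 and 53.4. The exception was dnTCF4 2, where it was 66.2 against 87.4, and that list has only 191 peaks. Over all 811 regions the median percentile was 77.1, and 168 regions reached 90. Regions of 8 libraries had a median of 88.4 and those of 5 libraries 75.2.

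At the limits of the rule, the widest members included chr15:5080092-5085087 near Card6 (4996 bp) and chr2:147490990-147495982 near Pax1 (4993 bp). The narrowest recurrent regions left out for length lay over Kcnj4 (5042 bp), Gjc1 (5049 bp) and Ap1b1 (5053 bp). Among regions left out with 4 libraries, the highest percentiles were 99.7 at chr8:121395536-121396267, chr12:86215758-86216001 and chr2:28282862-28284121.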

How the data were processed

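H3K27me3 was profiled by ChIPmentation, in which a transposase adds adapters to immunoprecipitated chromatin. The submitters' processing notes name MACS2 2.1.2 and Bowtie2 2.3.4.1 with the build mm10, and also bedtools 2.28.0, SAMtools 1.2, Picard 2.20.2, cutadapt and Trim Galore. Their settings, and the control track of the peak caller, were not given in the sources used here. As deposited by the authors, there is 1 peak list per library, whose columns give each peak a score, a −log10 q, a −log10 p-value and a fold enrichment ratio. The smallest −log10 q among the peaks was 1.01. The lists hold no counts, so depth is unknown.

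Merging, overlaps and distances were computed with Python 3.11.15, pandas 2.3.3 and numpy 2.4.6, and exact tests with scipy 1.17.1, after a test on simulated data. Coordinates are 1-based. Gene ends and promoter windows came from RefSeq for GRCm38.p6, the same build. The promoter table held no windows of chromosome 18 and 54.4% of the genes of chromosome 15, and 82.7% of those of the other 17 autosomes, so promoter shares leave out the former.

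The members and gene lists were chosen with earlier results of these data known. Regions named are those in 7 or 8 libraries, the most unequal between groups, the highest in percentile, those over listed genes (up to 6 per list) and those beside the limits of the rule. Only some of them are described, and some are not reported here. Other regions and genes, including runs, genes with several regions and 5 gene families, were chosen after their values were seen. Alternatives were other thresholds on q, merging, recurrence and length, long lists cut to 4885 peaks, promoter definitions, a replicate block and leaving out each library. Others, chosen after seeing the data, used fewer chromosomes or counted near-identical starts once.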

Additional observations from a re-analysis of the deposited data

How the results depend on the processing

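Merging peaks up to 500 bp apart gave 797 regions, and neither that nor leaving out chromosomes 2, 5, 15 and 17 moved a share recomputed under it beyond its 95% interval. The number of regions was 163 with only peaks of −log10 q at least 2, 2727 at 4 or more libraries, 223 at 6 or more and 320 below 2000 bp. It was 448 with lists cut to at most 4885 peaks, where shorter lists stayed as they were. With 1 library left out it was 239 to 794 (239 without dnTCF4 1, 240 without control 4, 266 without dnTCF4 3, 294 without control 3 and 344 without dnTCF4 4). The share with more control libraries was 27.6% at −log10 q of at least 2, 10.5% at 4 or more libraries and 20.2% at 6 or more. For more dnTCF4 libraries it was 44.2%, 19.9% and 19.7%, and 50.2% with lists cut to at most 4885 peaks. Leaving out 1 library gave 5.78 to 84.3% with more control and 7.95 to 81.7% with more dnTCF4 libraries, the former without control 3 and dnTCF4 4 and the latter without dnTCF4 1 and control 2. Leaving out 1 library also makes the groups unequal in size, which bears on these shares, and the cause was not tested. The share over a promoter was 2.53% below 2000 bp, 20.4% within 2000 bp of a start, and 2.75 to 4.97% with 1 library left out. The share over a gene was 34.4% below 2000 bp and 39.0 to 43.3% with 1 library left out. Regions called between groups numbered 0 in each of these, and 0 with a replicate block as sign flips over same-numbered pairs, which cannot go below p 0.125. Neither says anything of stability. Deviations of same-numbered libraries correlated at -0.05, 0.12, 0.10 and -0.21, and those of differently numbered libraries at -0.33 to 0.26. These are correlations of peak presence in lists of unlike length, so they cannot show whether the numbers pair the libraries.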

Other observations

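Gene families that were noticed in the data, and not fixed beforehand, also met narrow recurrent regions. Of 53 keratin genes, which encode filaments of epithelia and hair, 5 were overlapped (9.43%, against 1.30% of all genes), namely Krt27, Krt28, Krt72, Krt77 and Krt86, and 12 had a region over them or within 10 kb. The Krt28 region, chr11:99365184-99366625, had peaks in every library but control 1, at a percentile of 95.1. Of 27 WAP four-disulfide and seminal vesicle genes, Wfdc8 and Wfdc9 were overlapped (7.41%), and 8 had a region over them or within 10 kb (29.6%). Most of these genes lie in a cluster of secreted protease inhibitors on chromosome 2. Among 42 beta-defensin genes, which encode antimicrobial peptides, Defb23, Defb28 and Defb29 were overlapped (7.14%). Potassium channel genes had 6 of 91 (6.59%) and solute carrier genes 11 of 332 (3.31%) overlapped. Their median lengths were 36.2 and 28.8 kb, against 17.5 kb over all genes. Such families also often had a merged region of any kind. These were 33 of 53 keratin, 13 of 27 WAP and 15 of 42 beta-defensin genes. Among potassium channel genes they were 51 of 91 and among solute carrier genes 102 of 332, against 3599 of all 20665 genes. Neighbouring genes of such clusters share regions and are not independent.

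Outside the rule's chromosomes, 11 regions of the X chromosome met its other conditions, and so did 28 regions inside the block of chromosome 9 that it leaves out.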
